A study of Mus musculus with 9 samples.

Results

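The genes described here encode 28 proteins of DNA damage signalling and repair, looked up by gene symbol among the 40879 symbols of the count files. Of these 28, 27 had a count in at least 1 library, 20 passed the filter on low counts and were tested, 7 had counts but too few to be tested, and H2ax had no count in any library. They were chosen by name and fall into 6 roles: damage and checkpoint kinases, proteins that mark and bridge breaks, homologous recombination, the Fanconi anaemia pathway, end joining, and single-strand break and mismatch repair.

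The samples are engineered muscle constructs made from C2C12, a single mouse myoblast line labelled WT, set in matrix from muscle tissue. Growth medium was used for 2 days, and differentiation medium with 10% equine serum for the next 10 days. Irradiated constructs received 1 X-ray dose of 20 Gy, a dose that breaks both strands of DNA and drives cultured cells into senescence. Cocultured constructs were not irradiated and shared a dish with an irradiated construct. Normal constructs were not irradiated and shared a dish with their own kind. Each group has 3 libraries, while the design text counts 2 for the irradiated and normal groups, and the time between irradiation and harvest is not given in the sources used here. Libraries read the 3′ ends of polyadenylated RNA from whole constructs, in which fewer cells using a gene and less RNA per cell cannot be told apart.

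Ionising radiation leaves double-strand breaks that ATM, ATR and DNA-PK sense by phosphorylating histone H2AX and the checkpoint kinases. Breaks are then rejoined directly by end joining in any phase of the cell cycle, or copied from the sister chromatid by homologous recombination after DNA replication. Much of this response works by modifying proteins that are already present. Transcripts of many recombination and Fanconi anaemia genes are known to be made mainly in dividing cells, and cells that fuse into myotubes leave the cycle.

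Library totals ran from 6485655 to 8290468 counts in irradiated, from 7506605 to 8035763 in cocultured and from 4840993 to 6607557 in normal constructs. Irradiated 2 and irradiated 3 had the fewest detected genes (8306 and 8654, against 10002 to 14159 in the other libraries). The 13 muscle markers looked up were all tested. Their summed level was 48850 normalised CPM in irradiated 1 and 80590 in normal 3, against 4530 to 8394 elsewhere. Most of the muscle marker counts in these 2 libraries came from Acta1, Tnnt3, Ckm and Mylpf. Not every marker followed, as Mymk had its fewest counts in normal 3 and Myh3 in irradiated 1. Macrophage markers summed to 0 to 37.2 normalised CPM. CPM scale each count to its library's total, here after adjustment of that total by TMM factors.

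No repair gene passed the test in any of the 3 comparisons. In irradiated against normal constructs 0 of 20 tested members were called by edgeR's quasi-likelihood test at an adjusted p under 0.05, where 0.0584% of all 11980 tested genes were. In cocultured against normal constructs 0 of 20 were called, beside 0% of all genes. In irradiated against cocultured constructs 0 of 20 were called, beside 0.0334% of all genes. With so few calls among all genes, a count of 0 among 20 members is what the background gives. At an unadjusted p under 0.05 there were 0 members in the first comparison (background 10.3%), 1 in the second (4.11%) and 2 in the third (9.58%). DESeq2 called 0, 1 and 2 members in these comparisons, in the same order, beside 3.74%, 0.701% and 3.96% of all genes. By limma voom 0 members were called in each, beside 0.209%, 0% and 0.876% of all genes.

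The summed level of all 28 genes overlapped between groups. It was 408.8, 294 and 418.9 normalised CPM in irradiated 1, 2 and 3, then 420.4, 377.4 and 337.1 in cocultured 1, 2 and 3, and 398.2, 463.6 and 274.2 in normal 1, 2 and 3. The median log2 fold change of the 20 tested members was 0.18 in irradiated against normal constructs (all tested genes -0.21), -0.04 in cocultured against normal (all genes -0.07) and 0.09 in irradiated against cocultured (all genes -0.10). Members were split between signs, with 11, 9 and 11 of 20 positive. The sign of these medians was not stable: in irradiated against normal constructs the median was -1.11 by limma voom, -0.43 without a filter on low counts and -0.29 with the replicate number as a block, and leaving out 1 library gave -0.94 (irradiated 3) to 0.15, negative for all but normal 2 and cocultured 2. Leaving out 1 library gave medians of -0.12 to 0.28 in cocultured against normal constructs and of -0.82 (irradiated 3) to 0.13 in irradiated against cocultured. The medians also depended on the scaling. With library totals in place of TMM they were 0.58 in cocultured against normal constructs, 0.16 in irradiated against normal and -0.18 in irradiated against cocultured. These medians are not all over the same genes. They cover 27 members without the filter and 21 to 24 with 1 library left out. By limma voom, with library totals and with the block they cover 20, as in the main fit.

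**Figure D1:**
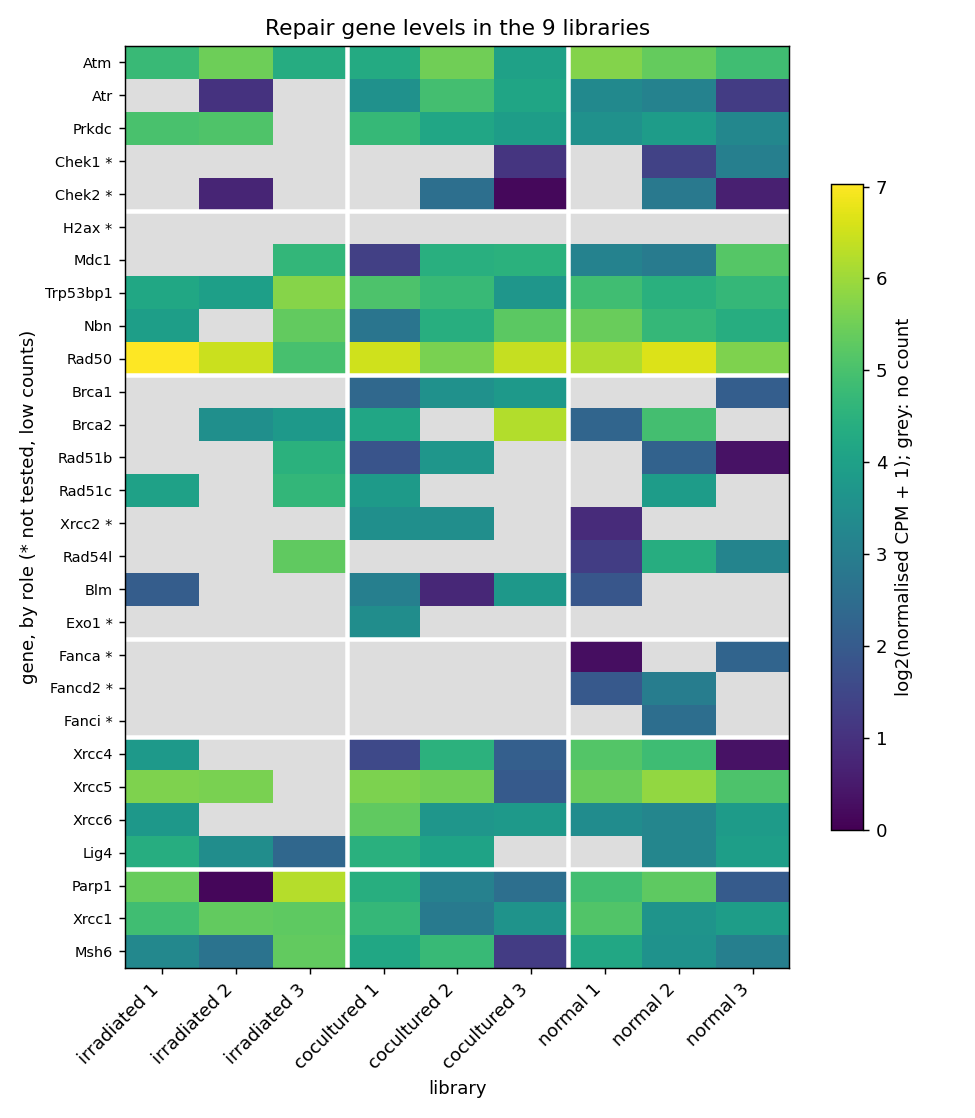
Normalised CPM on a log2(value + 1) scale of the 28 genes (rows, by role) in the 9 libraries (columns, irradiated, cocultured and normal); grey cells hold no count and an asterisk marks the genes not tested. Of the 28 genes, 6 have a count in every library, and the 3 Fanconi anaemia genes are grey in all irradiated and cocultured libraries.

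Among the kinases, Atm, which is activated at double-strand breaks, was present in every library. It stood at 26.0, 43.4 and 19.5 normalised CPM in irradiated constructs, at 18.5, 44.1 and 15.1 in cocultured and at 51.3, 40.4 and 28.2 in normal constructs. The groups overlapped in each comparison. The log2 fold change was -0.43 ± 0.84 (SE) in irradiated against normal, with a 95% interval of -2.25 to 1.38, and -0.63 ± 0.84 in cocultured against normal (interval -2.44 to 1.19). Both had an edgeR adjusted p of 1.

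Atr, the kinase that answers single-stranded DNA at stalled replication forks, stood at 0, 1.03 and 0 normalised CPM in irradiated constructs, at 10.7, 29.3 and 16.5 in cocultured and at 9.04, 7.73 and 1.37 in normal constructs. Irradiated libraries lay lowest and cocultured libraries highest, with no overlap in any of the 3 comparisons. The counts behind the lowest values were small, with 0, 11 and 0 in irradiated libraries and 5 in normal 3. The gap between irradiated 2 and normal 3 rests on their TMM factors (1.289 and 0.5559). Scaled by library totals alone (8290468 and 6607557 counts), irradiated 2 would lie above normal 3. Atr was singled out after its values were seen. It was not called by edgeR in irradiated against cocultured constructs (log2 -5.66 ± 2.63, interval -11.34 to 0.02, adjusted p = 0.493). DESeq2 did call it there (log2 -5.57, adjusted p = 0.0483), and limma voom did not (adjusted p = 0.0665). In irradiated against normal constructs the edgeR adjusted p was 0.699, and in cocultured against normal it was 1.

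Prkdc, the catalytic subunit of the end-joining kinase DNA-PK, stood at 31.1, 32.9 and 0 normalised CPM in irradiated constructs, at 25.2, 17.0 and 14.0 in cocultured and at 10.7, 13.6 and 8.48 in normal constructs. Each cocultured library was above each normal one, while irradiated 3 had no count and the other 2 irradiated libraries were above all others. Its edgeR adjusted p was 1 in each comparison. The checkpoint kinases Chek1 and Chek2, which relay ATR and ATM signals to the cell cycle, were too low to test. Chek1 had no count in irradiated constructs, 10 counts over the cocultured and 33 over the normal libraries. Chek2 had 7, 49 and 29 counts over irradiated, cocultured and normal libraries.

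In all, the irradiated and normal ranges of normalised CPM did not overlap for 1 of 20 members, Atr, against 15.7% of all tested genes. For cocultured and normal constructs it was 4 of 20, Atr, Prkdc, Brca1 and Rad54l, against 13.2%. For irradiated and cocultured constructs it was 3 of 20, Atr, Brca1 and Xrcc1, against 14.5%.

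Of the proteins that mark and bridge breaks, H2ax encodes the histone variant whose phosphorylated tail is the usual stain for breaks. Its symbol was listed at 0 in all 9 libraries, so its level cannot be compared. A count of 0 allows up to 3 counts in a library, or 0.282 to 0.821 normalised CPM, for counting error only.

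Rad50, a subunit of the complex that tethers broken ends, gave the narrowest interval of the members. It stood at 129, 87.8 and 30.4 normalised CPM in irradiated constructs, at 89.8, 47.5 and 84.3 in cocultured and at 72.3, 100.4 and 49.5 in normal constructs. Every group spanned much of the same range. The log2 fold change was 0.15 ± 0.56 in irradiated against normal (interval -1.06 to 1.37), 0.00 ± 0.56 in cocultured against normal (interval -1.22 to 1.21) and 0.16 ± 0.56 in irradiated against cocultured (interval -1.06 to 1.37), each with an edgeR adjusted p of 1. Rad50 was the 1 member of 20 whose interval stayed within 2 log2 units of 0 in each comparison.

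Nbn, the partner of Rad50 that recruits ATM, stood at 14.3, 0 and 39.7 normalised CPM in irradiated constructs, at 5.68, 20.1 and 37.1 in cocultured and at 41.9, 24.8 and 19.7 in normal constructs. The irradiated libraries alone spanned almost the whole range. The log2 fold change in irradiated against normal was -0.68 ± 1.58 (edgeR adjusted p = 1). It was -2.02 without irradiated 3, -0.09 without irradiated 2, -3.48 by limma voom and -1.43 with the replicate block. Trp53bp1 encodes 53BP1, which shields broken ends from resection. It averaged 28.3 ± 21.6 normalised CPM in irradiated, 23.3 ± 10.4 in cocultured and 24.7 ± 3.61 in normal constructs (SD, n = 3 each). Irradiated 3 held 53.3 normalised CPM, and irradiated 1 and 2 held 17.2 and 14.5. Its log2 fold change in irradiated against normal, 0.20 ± 0.99 (edgeR adjusted p = 1), became -0.64 without irradiated 3. Mdc1, the adaptor that binds phosphorylated H2AX, stood at 0, 0 and 24.2 normalised CPM in irradiated, at 1.5, 20.8 and 21.6 in cocultured and at 7.60, 6.59 and 35.0 in normal constructs.

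**Figure D2:**
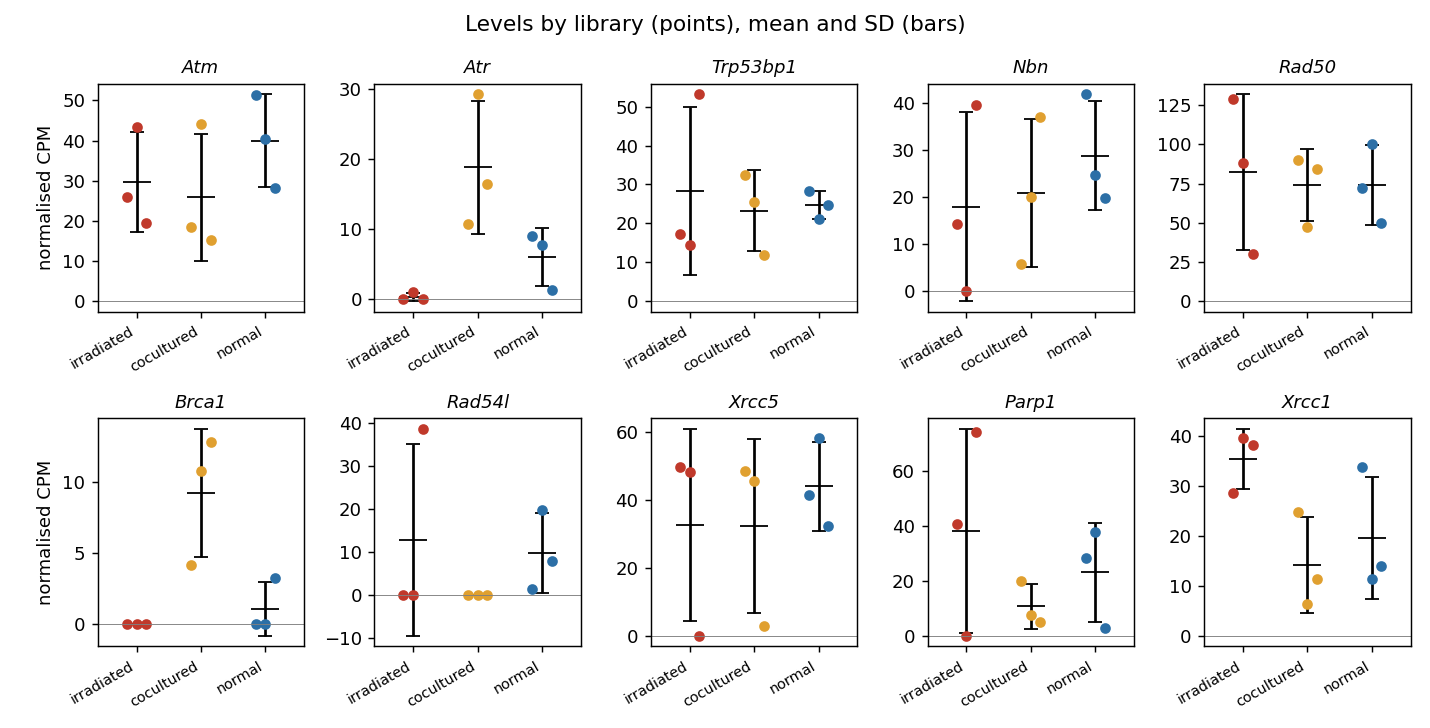
Normalised CPM by library (points) with mean and SD (black bars, n = 3 each) in irradiated, cocultured and normal constructs, for the 9 genes given with their full statistics and Atr. Atr has its irradiated points at 0 to 1.03 and its cocultured points at 10.7 to 29.3, and Rad54l has no count in cocultured constructs.

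The 8 homologous recombination genes were seen unevenly. Brca1, which promotes resection of ends, had no count in any irradiated library. It stood at 4.18, 10.8 and 12.8 normalised CPM in cocultured constructs and at 0, 0 and 3.28 in normal constructs. All cocultured libraries were thus above all others. With a group without counts set to a floor of 3 counts in sum, Brca1 was at least 73.1-fold lower in irradiated than in cocultured constructs. Against normal constructs it was at least 7.38-fold lower. Both values allow for counting error of the group without counts only, and take the other group's counts as exact. The fitted log2 fold changes, which are no bounds, were -9.05 ± 3.60 in irradiated against cocultured (edgeR adjusted p = 0.493). They were -5.99 ± 3.02 in irradiated against normal (interval -12.64 to 0.66, edgeR adjusted p = 0.525) and 3.06 ± 2.95 in cocultured against normal (edgeR adjusted p = 1). The normal level behind the 7.38-fold bound, and behind both fitted values against normal, rests on the 12 counts of normal 3. Without that library the normal group had no count, and the fitted value in cocultured against normal was 9.13. Outside the cocultured libraries Brca1 had no other count.

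Rad54l, a motor protein that acts on DNA during strand exchange, had no count in cocultured constructs. It stood at 0, 0 and 38.6 normalised CPM in irradiated constructs and at 1.44, 19.8 and 7.94 in normal constructs. All 329 irradiated counts came from irradiated 3. It was at least 88.4-fold lower in cocultured than in normal constructs against the same floor, with the normal counts taken as exact. The fitted log2 fold change was -9.13 ± 3.76 in cocultured against normal (edgeR adjusted p = 1) and 9.53 ± 3.83 in irradiated against cocultured (edgeR adjusted p = 0.493). DESeq2 called both (adjusted p = 7.38e-11 and 1.97e-11), while limma voom called neither (0.653 and 0.514). DESeq2's log2 values there, -22.97 and 23.47, were fitted against a group without counts and are no bounds. The irradiated difference rests on irradiated 3, without which neither group had a count.

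Brca2, which acts on resected single-stranded DNA, stood at 0, 10.3 and 12.6 normalised CPM in irradiated, at 16.9, 0 and 73.5 in cocultured and at 3.90, 29.5 and 0 in normal constructs. Each group held a library without a count. Rad51c, a recombination gene, stood at 15.3, 0 and 23.9 normalised CPM in irradiated, at 13.2, 0 and 0 in cocultured and at 0, 13.9 and 0 in normal constructs. Its relative Rad51b stood at 0, 0 and 21.4 in irradiated, at 2.57, 11.9 and 0 in cocultured and at 0, 3.64 and 0.274 in normal constructs. Neither showed a group apart. Blm, a helicase that dissolves joined chromatids, stood at 3.19, 0 and 0 normalised CPM in irradiated, at 7.18, 0.724 and 12.4 in cocultured and at 2.67, 0 and 0 in normal constructs. Cocultured 2 lay below irradiated 1 and normal 1, so the groups overlapped. Xrcc2, another recombination gene, and Exo1, a nuclease that resects ends, were not tested. Xrcc2 had 0, 194 and 4 counts over irradiated, cocultured and normal libraries, with 97, 97 and 0 in cocultured 1, 2 and 3. Exo1 had 92 counts, all in cocultured 1.

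The Fanconi anaemia pathway repairs crosslinks between strands. Fanca belongs to its core complex, and Fancd2 and Fanci form the clamp that the complex marks with ubiquitin. None of the 3 had a count in any irradiated or cocultured library. In normal constructs Fanca had 1, 0 and 14 counts, Fancd2 14, 30 and 0, and Fanci 0, 21 and 0. None reached the filter for testing. Fancd2 was at least 27.1-fold lower in irradiated and at least 31.6-fold lower in cocultured than in normal constructs. These values use the group floor of 3 counts and take the normal counts as exact. The other 13 genes of the pathway that were looked up, 11 of which could be tested and 1 of which had no count in any library, had summed levels of 132.8 to 181.4 normalised CPM in irradiated, 156.1 to 204 in cocultured and 136.3 to 184.5 in normal constructs. By GENCODE M21, all 3 members overlap, in the last 1000 bases of the gene, an exon of a gene on the opposite strand (Zfp276, Fancd2os and Polg). Their counts are uncertain, because no source used here gives the strand setting of the counting. The same holds for H2ax (Gm44335), Rad54l (Lrrc41) and Msh6 (Fbxo11).

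In end joining, Xrcc5 and Xrcc6 encode the larger and the smaller subunit of Ku, the ring that slides onto broken ends. Xrcc5 stood at 49.6, 48.3 and 0 normalised CPM in irradiated constructs, at 48.4, 45.6 and 2.94 in cocultured and at 41.5, 58.2 and 32.3 in normal constructs. Irradiated 3 and cocultured 3 were far below their own replicates. The log2 fold change was -0.43 ± 1.43 in irradiated against normal, -0.44 ± 1.43 in cocultured against normal and 0.01 ± 1.43 in irradiated against cocultured, each with an edgeR adjusted p of 1. Xrcc6 stood at 12.4, 0 and 0 normalised CPM in irradiated, at 38.6, 12.0 and 12.7 in cocultured and at 9.65, 8.41 and 13.4 in normal constructs. Its groups overlapped in each comparison.

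The ligase Lig4 stood at 19.6, 9.97 and 4.11 normalised CPM in irradiated, at 21.1, 15.9 and 0 in cocultured and at 0, 8.41 and 14.2 in normal constructs. Its partner Xrcc4 stood at 12.8, 0 and 0 in irradiated, at 1.93, 21.7 and 3.39 in cocultured and at 34.3, 27.5 and 0.274 in normal constructs. The summed level of the 4 end-joining genes ran from 4.11 to 94.3 normalised CPM in irradiated, from 19.0 to 110 in cocultured and from 60.2 to 102.5 in normal constructs, and the ranges overlapped.

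Parp1, the sensor that marks nicks with poly(ADP-ribose), stood at 40.9, 0.0940 and 74.2 normalised CPM in irradiated constructs, at 20.1, 7.55 and 4.97 in cocultured and at 28.5, 38.0 and 3.01 in normal constructs. A single count stood behind irradiated 2. The log2 fold change was 0.73 ± 1.54 in irradiated against normal (edgeR adjusted p = 1) and 1.82 ± 1.58 in irradiated against cocultured (edgeR adjusted p = 0.887). Xrcc1, the scaffold of single-strand break repair, stood at 28.5, 39.6 and 38.1 normalised CPM in irradiated, at 24.9, 6.31 and 11.3 in cocultured and at 33.7, 11.4 and 14.0 in normal constructs. Every irradiated library was above every cocultured one. The log2 fold change was 1.32 ± 1.08 in irradiated against cocultured (interval -1.01 to 3.65, edgeR adjusted p = 0.861) and 0.85 ± 1.07 in irradiated against normal (interval -1.46 to 3.16, edgeR adjusted p = 1). Msh6, which recognises mismatches, averaged 17.7 ± 18.6 normalised CPM in irradiated, 14.9 ± 12.4 in cocultured and 11.8 ± 5.23 in normal constructs (SD, n = 3 each).

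**Figure D3:**
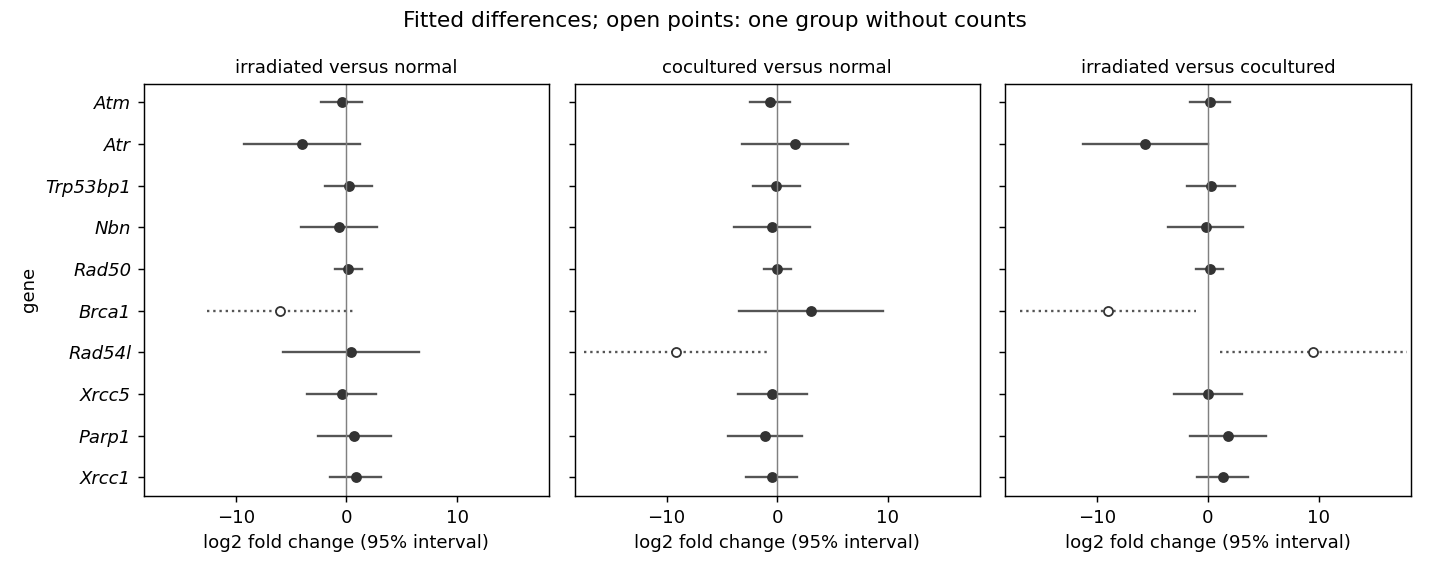
Log2 fold changes (points) with 95% intervals (lines) of the same 10 genes in irradiated against normal, cocultured against normal and irradiated against cocultured constructs; positive values are higher in the group named first, and open points with dotted lines mark a group without counts, whose fitted value is no bound. All intervals in irradiated against normal hold 0, and the narrowest belongs to Rad50 (-1.06 to 1.37).

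The spread between replicates set what could be seen. The square root of the dispersion, a measure of variation between replicates relative to the mean, had a median of 1.62 over the 20 members and of 1.24 over all tested genes. It was 0.551 for Rad50, 0.764 for Atm and 0.863 for Trp53bp1, and 2.73 for Rad51c. For 10 of the 20 members (50%) 1 irradiated library had no count while another had at least 30. That was so for 4 members (20%) in cocultured and 3 (15%) in normal constructs. The same pattern was found in 44.7%, 24.9% and 19.5% of the 9208 tested genes whose mean level lay within the members' range. Tested members without a count numbered 6 to 9 of 20 in irradiated, 1 to 4 in cocultured and 2 to 4 in normal libraries.

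**Figure D4:**
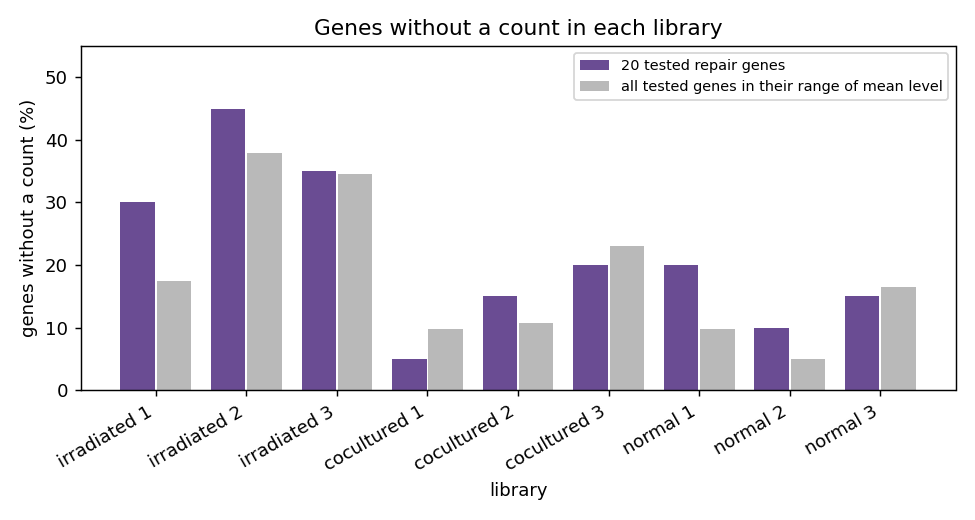
Share of genes without a count in each library, for the 20 tested repair genes and for the 9208 tested genes in the same range of mean level (2.91 to 76.8 normalised CPM). Repair genes without a count make up 30% to 45% in irradiated, 5% to 20% in cocultured and 10% to 20% in normal libraries; of the 9208 genes, irradiated 2 and 3 have the highest shares (37.9% and 34.6%), and irradiated 1 (17.4%) lies below cocultured 3 (23.0%).

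Other genes of the same pathways, 101 in 7 lists, gave the same count of calls. Of 86 tested, 0 were called by edgeR in any comparison. In irradiated against normal constructs 13 of 86 (15.1%) were lower at an unadjusted p under 0.05 and 0 higher, where 8.7% of all genes were lower. In irradiated against cocultured constructs 9 (10.5%) were lower and 0 higher, with 7.33% of all genes lower. In cocultured against normal constructs 0 were, with 3.26% of all genes lower. Their median log2 fold change was -0.66 in irradiated against normal constructs.

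Of the genes with the smallest p of their list in irradiated against normal constructs, those named here had lower values in irradiated ones. None passed edgeR's test. Lig1, the ligase that seals replicated DNA and excision patches, averaged 41.8 ± 24.1 normalised CPM in irradiated and 130 ± 71.5 in normal constructs (SD, n = 3 each; log2 -1.64 ± 0.56, edgeR adjusted p = 0.466). Rad23b, which helps recognise damage in nucleotide excision repair, averaged 99.5 ± 28.3 and 175.7 ± 35.7 in irradiated and normal constructs (SD, n = 3 each; log2 -0.82 ± 0.35, edgeR adjusted p = 0.483). The end-cleaning enzyme Tdp2 had 0 irradiated and 92 normal counts, the core complex gene Fance 1 and 164, and the checkpoint kinase Wee1 3 and 130. Each of these 3 had an edgeR adjusted p of 0.483. DESeq2 called Wee1 (log2 -6.54, adjusted p = 0.039), and limma voom did not (adjusted p = 0.193).

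The 16 proliferation markers, given beside these values because many repair genes are used in dividing cells, summed to 90.9 to 190.5 normalised CPM in irradiated, 299.2 to 616.1 in cocultured and 227.7 to 659.7 in normal constructs. Their part in the repair values was not tested. None of the 16 was at 0 in all 9 libraries, and 0 passed. At an unadjusted p under 0.05, 7 of 16 were lower in irradiated than in normal constructs, where 8.7% of all tested genes were. Top2a, the topoisomerase that untangles replicated chromosomes, averaged 18.2 ± 10.2 normalised CPM in irradiated and 137 ± 72.2 in normal constructs (SD, n = 3 each; log2 -2.91 ± 0.61, edgeR adjusted p = 0.124). DESeq2 called it (adjusted p = 0.0013). So did edgeR without a filter on low counts (adjusted p = 0.00126) and with the replicate number as a block (adjusted p = 0.0311). Limma voom did not call it (adjusted p = 0.238). Nor did edgeR with library totals in place of TMM (adjusted p = 0.32) or with any 1 library left out (adjusted p = 0.0649 to 0.381). The factor p53 is stabilised by ATM and the checkpoint kinases. Of 18 p53 targets, 13 had positive log2 fold changes in irradiated against normal constructs (median 0.43), where 41.8% of all tested genes did. In cocultured against normal constructs 14 did (median 0.59), beside 46.9% of all tested genes. None passed in either comparison. Cdkn1a, which encodes the cell cycle inhibitor p21, averaged 1615 ± 196 and 996 ± 356 normalised CPM in irradiated and normal constructs (SD, n = 3 each; log2 0.70 ± 0.33, edgeR adjusted p = 0.486).

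Promoters were matched by symbol in the RefSeq table of build GRCm38.p6, which is not the build named for the counts. Of the 28 genes 21 had an entry, 25 entries in all, and the 250 bases before each start were searched on both strands. The letters TTTCCCGC or TTTGGCGC, bound by E2F factors of the S phase programme, were found in 4 of 25 entries (16%), against 1.3% of all 32851. The CCAAT box of NF-Y was found in 13 (52%), against 33.8%. TTTGAA or TTCGAA, the CHR element of late cell cycle genes, was found in 1 (4%), against 17.1%, and a p53 half-site pair in 0, against 0.0639%. A match describes these letters and shows no binding.

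The 4 entries with E2F letters are shown around the match because no other of the 21 genes with an entry held these letters. Capitals mark the match, which reads GCGGGAAA where it lies on the other strand. Their regions are chr5:150522427-150522486 for Brca2, chr5:110839805-110839864 for Chek2, chr17:35841456-35841497 for Mdc1 and chr15:82016297-82016356 for Xrcc6, all on the plus strand of GRCm38.p6, read 5′ to 3′.
Brca2: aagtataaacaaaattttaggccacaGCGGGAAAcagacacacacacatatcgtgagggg
Chek2: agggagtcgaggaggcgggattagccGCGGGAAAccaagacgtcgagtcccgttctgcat
Mdc1: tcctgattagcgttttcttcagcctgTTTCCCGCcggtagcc
Xrcc6: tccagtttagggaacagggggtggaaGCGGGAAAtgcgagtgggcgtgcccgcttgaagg

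In Mdc1 the match lies next to the start, its first base 16 bases before it. In Xrcc6 that distance is 46 bases, in Chek2 152 and in Brca2 168. Mdc1, Brca2 and Xrcc6 overlapped in each comparison, and Chek2 was too low to test.

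Brca1 and Atr, the 2 genes whose irradiated and cocultured ranges lay apart with irradiated constructs lower, are shown over the whole 250 bases. Brca1 lies at chr11:101551956-101552205 on the minus strand and Atr at chr9:95857347-95857596 on the plus strand of GRCm38.p6. Capitals mark the CCAAT box in Brca1 and the CHR letters in Atr, the only match in each.
Brca1: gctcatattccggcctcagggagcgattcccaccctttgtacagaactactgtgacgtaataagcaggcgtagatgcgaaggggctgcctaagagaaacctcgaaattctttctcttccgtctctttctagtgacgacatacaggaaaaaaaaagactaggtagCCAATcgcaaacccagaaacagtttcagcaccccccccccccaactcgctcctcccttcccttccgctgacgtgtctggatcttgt
Atr: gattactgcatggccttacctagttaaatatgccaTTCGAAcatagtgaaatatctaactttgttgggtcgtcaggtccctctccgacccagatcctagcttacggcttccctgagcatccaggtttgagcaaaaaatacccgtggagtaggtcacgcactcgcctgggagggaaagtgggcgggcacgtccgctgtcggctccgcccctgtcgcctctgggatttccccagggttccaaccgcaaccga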

How the data were processed

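Per the labels' protocols, 100 ng of RNA per construct went into QuantSeq FWD libraries, a 3′-end kit, sequenced as single-end 75 bp reads. The submitters' processing notes name FastQC, STAR, HTSeq and the builds GRCm39 and mm39, without versions or roles. The authors deposited 1 raw count, not normalized, for each gene symbol and library. The normal column headers read differently from the labels, so each column was assigned by the sample its file belongs to.

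Genes were tested with edgeR 4.0.16 in R 4.3.3 (filterByExpr defaults, TMM, 1 quasi-likelihood fit of group over all 9 libraries). The 20 members were adjusted with all 11980 genes by Benjamini-Hochberg. SE is the log2 fold change over the square root of F and is approximate. Alternatives used DESeq2 1.42.0 and limma 3.58.1, among others. The test was checked on simulated data.

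Members and lists were chosen with earlier results of these data known. All 28 members are accounted for. Statistics are given for those tested with a mean of at least 20 normalised CPM or an unadjusted p under 0.05, and of each other list the gene with the smallest p is named, except some that are not reported here. Replicates may share a dish, so the p-values rest on variation that may be partly technical. No replicate pair looked like 1 library deposited again, as the chi-square of their counts was 32.6 to 274 a gene. Floors cover counting error only, and only that behind a count of 0, since reads carry no stated molecular identifiers. Protein sequences were not used here.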

Additional observations from a re-analysis of the deposited data

How the results depend on the processing

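The count of members called by edgeR, 0 in each comparison, stayed at 0 to 0 when each library was left out in turn and under every other alternative but DESeq2, which called 1 member in cocultured against normal and 2 in irradiated against cocultured constructs. Of 700 gene values under alternatives, 51 changed sign, and none of these 51 values passed the test. The cause was not tested.

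In irradiated against normal constructs, leaving out 1 library gave log2 fold changes of -0.64 to 0.52 for Trp53bp1, -0.32 to 0.55 for Rad50, -9.09 to 1.46 for Rad54l, -0.86 to 0.15 for Xrcc5 and -0.19 to 1.31 for Parp1. In cocultured against normal the ranges were -0.40 to 0.23 for Trp53bp1, -0.22 to 0.28 for Rad50, -0.86 to 0.10 for Xrcc5 and -1.16 to 0.19 for Xrcc1. In irradiated against cocultured they were -0.19 to 0.81 for Atm, -0.56 to 0.60 for Trp53bp1, -1.57 to 0.48 for Nbn, -0.32 to 0.55 for Rad50 and -0.53 to 0.60 for Xrcc5.

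In irradiated against normal, limma voom gave -0.06 for Trp53bp1, -0.18 for Rad50, -3.43 for Rad54l and -1.88 for Parp1. In irradiated against cocultured it gave -0.13 for Rad50, -2.0 for Xrcc5 and -1.04 for Parp1. Library totals in place of TMM gave 0.47 for Trp53bp1, 0.01 for Nbn, 0.48 for Rad50 and 0.06 for Xrcc5 in cocultured against normal, and -0.11 for Rad50 and -0.25 for Xrcc5 in irradiated against cocultured. No low-count filter gave 0.00 for Rad50 in cocultured against normal. Normal 3 and irradiated 1 had the highest sums of muscle markers. Without these libraries, Rad50 was at -0.53 in irradiated against normal. In irradiated against cocultured, Rad50 was then at -0.31 and Xrcc5 at -0.41. Without irradiated 2 and 3, chosen after seeing the data, Trp53bp1 was at -0.52, Rad54l at -8.98 and Xrcc5 at 0.17 in irradiated against normal, Rad50 at 0.00 in cocultured against normal, and Atm at 0.00 and Trp53bp1 at -0.44 in irradiated against cocultured.

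Deviations of same-numbered replicates were nearly uncorrelated (-0.071 to 0.054). This gives no sign that the numbers pair the samples, but it cannot exclude that some shared a dish. With the replicate block, Rad54l was at -3.00 in irradiated against normal, Rad50 at 0.07 in cocultured against normal, and Rad50 at -0.03 and Xrcc5 at -0.31 in irradiated against cocultured. The block called 0 members in each comparison and 23 genes in all, against 7, in irradiated against normal. DESeq2 called 448 genes there, 130 were called without the filter and 25 by limma voom.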
